A study of Mus musculus with 2 samples.

Results

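The miR-532 cluster is a group of 5 miRNA genes, Mir532, Mir188, Mir362, Mir501 and Mir500, that lie in sense inside an intron of Clcn5 on the mouse X chromosome. Its members were taken by name from 2199 annotated miRNA hairpins, and their reads are those of 18 nt or longer that lie in a hairpin in sense without mismatch. The members were chosen by their read counts in these same libraries, by arm and length in Dicer -/- against Dicer f/f cells, so differences between genotypes are given here as descriptions. Small RNA was sequenced from immortalized mouse mesenchymal stem cell lines, a fibroblast type of adult bone marrow, monoclonal and of strain C57BL/6. There were 2 groups of 1 library each, Dicer -/- (called null) and Dicer f/f, whose conditional alleles the labels treat as wild type. The labels give neither the age of the source animals nor the agent that deleted Dicer, nor whether a library holds 1 clone or several. Clone, culture and genotype therefore cannot be told apart, and with 1 library a genotype no test was run across them.

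The null library held 6291599 reads and the f/f library 9943989 reads. Levels are CPM, reads scaled to 1000000 reads of the whole library, ratios are null over f/f, and intervals are 95% exact intervals of counting error only. A count of 0 allows up to 0.477 CPM in null and 0.302 CPM in f/f, taken as 3 counts. Hairpin reads were 2.17% of the null library and 59.6% of the f/f library. Exons of Dicer1, the targeted gene, gave 23 null reads and 2 f/f reads that fit no other gene, a ratio of 18.2 (4.49 to 159). Such fragments of all protein-coding and lncRNA genes together were 4.79-fold more frequent in null, so a higher level there is not particular to Dicer1. These short fragments do not check the deletion. The 8 mesenchymal marker hairpins were Mir143, Mir145a, Mir199a-1, Mir199a-2, Mir199b, Mir214, Mir21a and Mir22. They summed to 4873 CPM in null and 189063 CPM in f/f, with no member at 0 in either library. Of their reads, miR-21a-5p alone gave 17934 of 30658 in null and 256189 of 1880038 in f/f, so most of the null sum is 1 miRNA. The 6 epithelial marker hairpins had 45.3 CPM in null, with none at 0, and 3.72 CPM in f/f, with Mir200a at 0, and the 4 haematopoietic ones 12.6 CPM in null and 134 CPM in f/f. Their part in the results below was not tested. Fewer cells of a type and less of an RNA per cell cannot be told apart in such bulk libraries.

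A miRNA is cut from a longer transcript by 2 enzymes in turn. Drosha frees the hairpin and so sets the 5′ end of its 5p arm and the 3′ end of its 3p arm, and Dicer then cuts near the loop and sets the other ends. An Argonaute protein keeps one arm as the mature miRNA, whose seed (bases 2 to 8) pairs with target mRNAs. Clcn5 encodes a chloride/proton exchanger of endosomes, and the same cluster lies in human CLCN5. In mouse bone marrow stromal cells, miR-188 is known to favour fat over bone cell formation.

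The mature sequences below, from RefSeq (GRCm38.p6), show which members share a seed. Seeds are in capitals. RefSeq matched 9 of the 10 arms. miR-532-5p has no line here, and its reads are shown further on.
miR-188-5p: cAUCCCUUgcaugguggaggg
miR-362-5p: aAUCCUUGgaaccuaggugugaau
miR-500-5p: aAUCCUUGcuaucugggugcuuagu
miR-501-5p: aAUCCUUUgucccugggugaaa
miR-500-3p: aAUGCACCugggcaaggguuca
miR-501-3p: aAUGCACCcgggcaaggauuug
miR-362-3p: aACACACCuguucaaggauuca
miR-188-3p: cUCCCACAugcaggguuugca
miR-532-3p: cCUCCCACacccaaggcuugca
The seed AUCCUUG was shared by miR-362-5p and miR-500-5p, and AUGCACC by miR-500-3p and miR-501-3p, which were identical at 18 of 22 positions. Among all mature mouse miRNAs of the table, 1 outside the cluster shared a seed with miR-362-3p (miR-329-3p) and 1 with miR-188-5p (miR-7061-3p). The seed of the commonest miR-532-5p read, AUGCCUU, was shared with miR-6339 and miR-6386. The seeds of miR-501-5p, miR-188-3p and miR-532-3p were found in no other miRNA there. In all, 170 distinct read sequences fell in the cluster, and 0 of them also lay in another hairpin or in another GENCODE transcript, so reads of the similar members could be told apart.

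All 5 hairpins are on the minus strand of chromosome X (GRCm38), so transcription meets Mir532 before the others. Mir532 lies at chrX:7248402-7248497, Mir188 at chrX:7247989-7248056, Mir362 at chrX:7241982-7242046, Mir501 at chrX:7241243-7241351 and Mir500 at chrX:7237683-7237774. The whole cluster spans 10815 bases of a 103648-base intron (chrX:7213011-7316658). Gaps were 345 bases between Mir532 and Mir188, 5942 between Mir188 and Mir362, 630 between Mir362 and Mir501 and 3468 between Mir501 and Mir500. The cluster is intronic in 3 of the 5 annotated Clcn5 transcripts. The other 2 start downstream of it. Clcn5 exons gave 28 null reads and 1 f/f read, a ratio of 44.3 (7.32 to 1810). Exon fragments of all protein-coding and lncRNA genes were 4.79-fold more frequent in null (4.76 to 4.83), and 99% of the 2790 genes with at least 20 reads in a library were more than 2-fold higher in null. Per gene, the median log2 ratio with 0.5 reads added was 3.83, and Clcn5, at 4.91, lay above 78% of these genes. A gene could reach 20 reads through null alone, where exon fragments were more frequent, as Clcn5 did. The filter thus draws the share and the median toward null, and nothing is read from them or from the rank of Clcn5. Fragments of the host mRNA were higher in null, as was the sum over all genes. Of the Clcn5 reads, 1 in null and 0 in f/f lay on exons used solely by transcripts that span the cluster.

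The cluster as a whole had 6575 null reads and 10173 f/f reads, 1045 CPM and 1023 CPM. The ratio of 1.02 (0.990 to 1.05) hid opposite differences among members. Mir532 supplied 97.6% of the cluster's reads in null (97.2 to 97.9) and 24.9% in f/f (24.1 to 25.8). Without Mir532, the other 4 members had 159 null reads and 7637 f/f reads, 30.4-fold lower in null (25.97 to 35.8). Next to them, all hairpins outside the cluster were 28.8-fold lower in null (28.68 to 28.99).

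Mir532 gave 6416 null reads and 2536 f/f reads. Its 5p arm had 6415 null reads and 1872 f/f reads, 1020 CPM and 188 CPM, a ratio of 5.42 (5.14 to 5.71). In the order of hairpin arms by reads, miR-532-5p stood at rank 3 of 889 detected in null and at rank 124 of 1185 in f/f. It made up 4.70% of hairpin reads in null and 0.0316% in f/f. Its 3p arm had 1 null read and 664 f/f reads, a ratio of 0.00238 (6.02e-05 to 0.0133). The 2 arms of this 1 hairpin thus differed in opposite directions, whether scaled to all reads, to reads of 18 nt or longer, to snoRNA and snRNA reads or to hairpin reads.

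Mir362, the member with most f/f reads, had 15 null reads and 3682 f/f reads, and was 155-fold lower in null (94.0 to 278). miR-362-5p had 15 null reads and 2975 f/f reads, 125-fold lower in null (76.0 to 224). Both miR-532-5p and miR-362-5p were the leading arm of their hairpin in f/f, and yet their order was turned round between the libraries. There were 428 reads of miR-532-5p for each read of miR-362-5p in null and 0.629 in f/f. This ratio lies within a library and does not depend on the scale. miR-362-3p had 0 null reads and 707 f/f reads, at least 149-fold lower in null.

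Mir500 was the member that f/f cells read mostly from its 3p arm. Of its reads, the 5p arm held 2.59% in f/f (2.02 to 3.27). miR-500-3p had 0 null reads and 2559 f/f reads, at least 540-fold lower in null. miR-500-5p had 7 null reads and 68 f/f reads, 6.15-fold lower in null (2.83 to 15.9), though higher per hairpin read (log2 ratio 2.16). Of the 7 null reads, 2 lay in the upstream flank. Mir501 was the most evenly read member, with 58.3% of its f/f reads on the 5p arm (55.4 to 61.1). miR-501-5p had 79 null reads and 694 f/f reads, 5.56-fold lower in null (4.40 to 7.11), but higher per hairpin read (log2 ratio 2.31). Without reads of the upstream flank, 62 null reads and 689 f/f reads lay on the miRNA itself. The 3p arm of Mir501 had 12 null reads and 497 f/f reads, 26.2-fold lower in null but 1.05-fold its f/f level per hairpin read. Of the 12 null reads, 11 lay past the miRNA in the hairpin's flank, which leaves 1 null read and 490 f/f reads on the miRNA itself. Mir188 was the scarcest member in f/f, with 46 null reads and 137 f/f reads. miR-188-5p had 46 null reads and 104 f/f reads, 1.43-fold lower in null (1.002 to 2.07), and higher per hairpin read (log2 ratio 4.26). Its reads with untemplated 3′ bases, left out of this ratio, numbered 3 in null and 100 in f/f. miR-188-3p had 0 null reads and 33 f/f reads, at least 6.96-fold lower in null, a bound that is lost per hairpin read.

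Over the cluster, the 5p arms held 99.8% of reads in null (99.7 to 99.9) and 56.2% in f/f (55.2 to 57.1). The 3p arms together had 13 null reads and 4460 f/f reads, 217-fold lower in null (127 to 408), and 11 of the 13 were the flank reads of Mir501. Among all hairpins outside the cluster the 3p arms were 76.1-fold lower and the 5p arms 23.3-fold lower in null. With at least 100 reads in a library, 8 of the 10 arms of the cluster and 335 arms in all could be compared. Of the 8, 1 was more than 2-fold higher in null (all arms, 11.3%) and 6 were more than 2-fold lower (all arms, 82.4%). The median log2 ratio with 0.5 reads added was -5.79 over these 8 and -5.24 over the 335. As the members were chosen on this contrast, nothing is read from these counts.

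**Figure D1:**
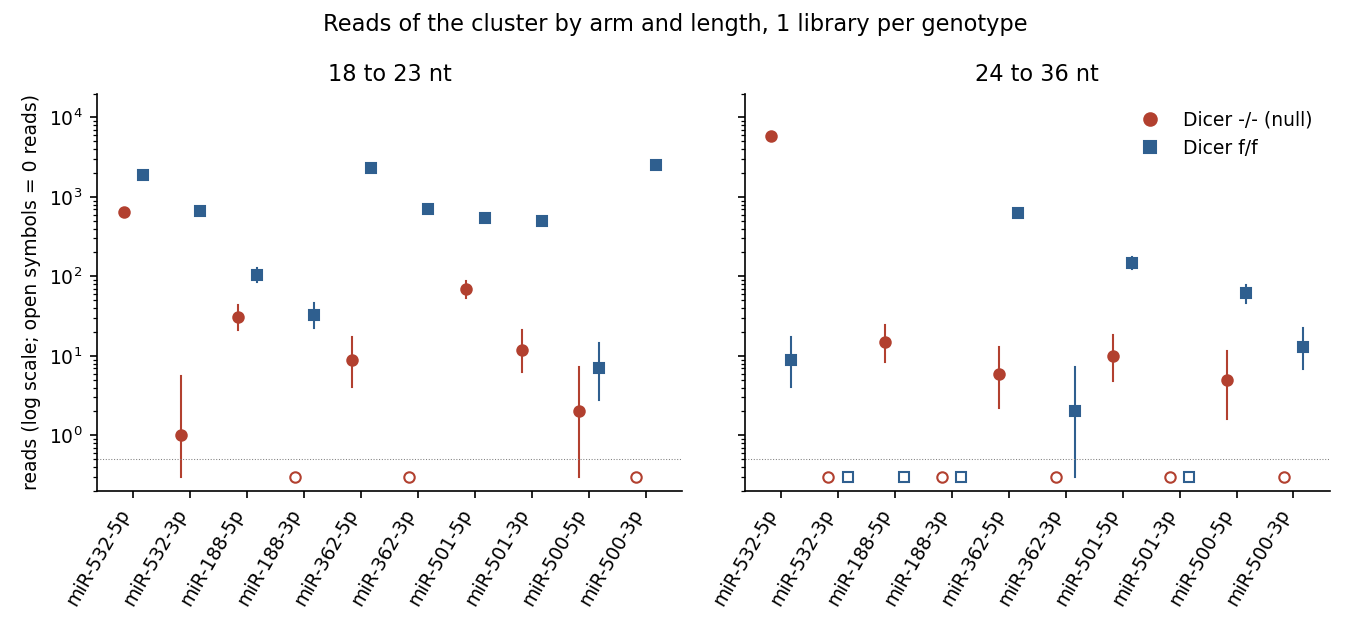
Reads of each arm of the cluster (log axis, with exact 95% Poisson intervals of counting) in the null library (circles) and the f/f library (squares), at 18 to 23 nt and at 24 to 36 nt; open symbols mark 0 reads. At 24 to 36 nt, miR-532-5p had 5765 null reads and 9 f/f reads, while miR-362-5p had 6 null reads and 631 f/f reads.

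Split by length, the cluster had 774 null reads and 9309 f/f reads at 18 to 23 nt, the usual size of Dicer products. That was 7.61-fold lower in null (7.07 to 8.20), although higher per hairpin read (log2 ratio 1.85), of which null has few. At 24 to 36 nt it had 5801 null reads and 864 f/f reads, 10.6-fold higher in null (9.88 to 11.4). Without Mir532 this difference turned to a log2 ratio of -3.91. RefSeq gives miR-362-5p 24 nt and miR-500-5p 25 nt, so their mature forms fall in the longer window. Of the 864 f/f reads, 627 of miR-362-5p and 57 of miR-500-5p began at their RefSeq starts. All hairpins outside the cluster were 104-fold lower at 18 to 23 nt and 1.11-fold lower at 24 to 36 nt. At 18 to 23 nt, 0 of 8 arms of the cluster were more than 2-fold higher (all arms, 5.5%) and 7 of 8 more than 2-fold lower (all arms, 91.9%). At 24 to 36 nt, 3 arms had enough reads, of which 1 was higher (all arms, 50.8%) and 2 were lower (all arms, 44.5%).

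miR-532-5p had 5765 null reads and 9 f/f reads of 24 nt or longer, 916 CPM and 0.905 CPM, a ratio of 1012 (533 to 2215). Such reads were 89.9% of its null reads (89.1 to 90.6) and 0.481% of its f/f reads (0.220 to 0.911). A further 307 null reads and 76 f/f reads of that length had untemplated end bases and are left out of these values. In f/f these 76 reads outnumber the 9 that were counted. With them the ratio would be far lower, so 1012 holds only for reads without mismatch. Long reads were usual for 5p arms in null: 81.8% of the 77 arms with at least 100 null reads had more than 50% of them at 24 nt or longer, against 18.3% of 142 arms in f/f. Among 111 arms with at least 100 reads in each length window, both libraries together, none outside the cluster had a higher ratio at 24 to 36 nt. The cluster was chosen on this contrast and the ratio rests on 9 f/f reads, so nothing is read from that rank. Other arms also had few f/f reads there, with 474 null reads and 1 f/f read for miR-27a-5p and 1920 and 7 for miR-350-5p. At 18 to 23 nt miR-532-5p had 650 null reads and 1863 f/f reads, a ratio of 0.551 (0.504 to 0.603). That window mixed different molecules, since 87.8% of its null reads were of 23 nt (85.1 to 90.3) and 84.3% of its f/f reads of 22 nt (82.6 to 85.9). At 18 to 22 nt it had 79 null reads and 1800 f/f reads, 14.4-fold lower in null (11.5 to 18.3). In that window, set after the 23-nt form had been seen, 0 of 8 arms of the cluster were more than 2-fold higher (all arms, 3.93%) and 8 of 8 more than 2-fold lower (all arms, 93.2%).

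**Figure D2:**
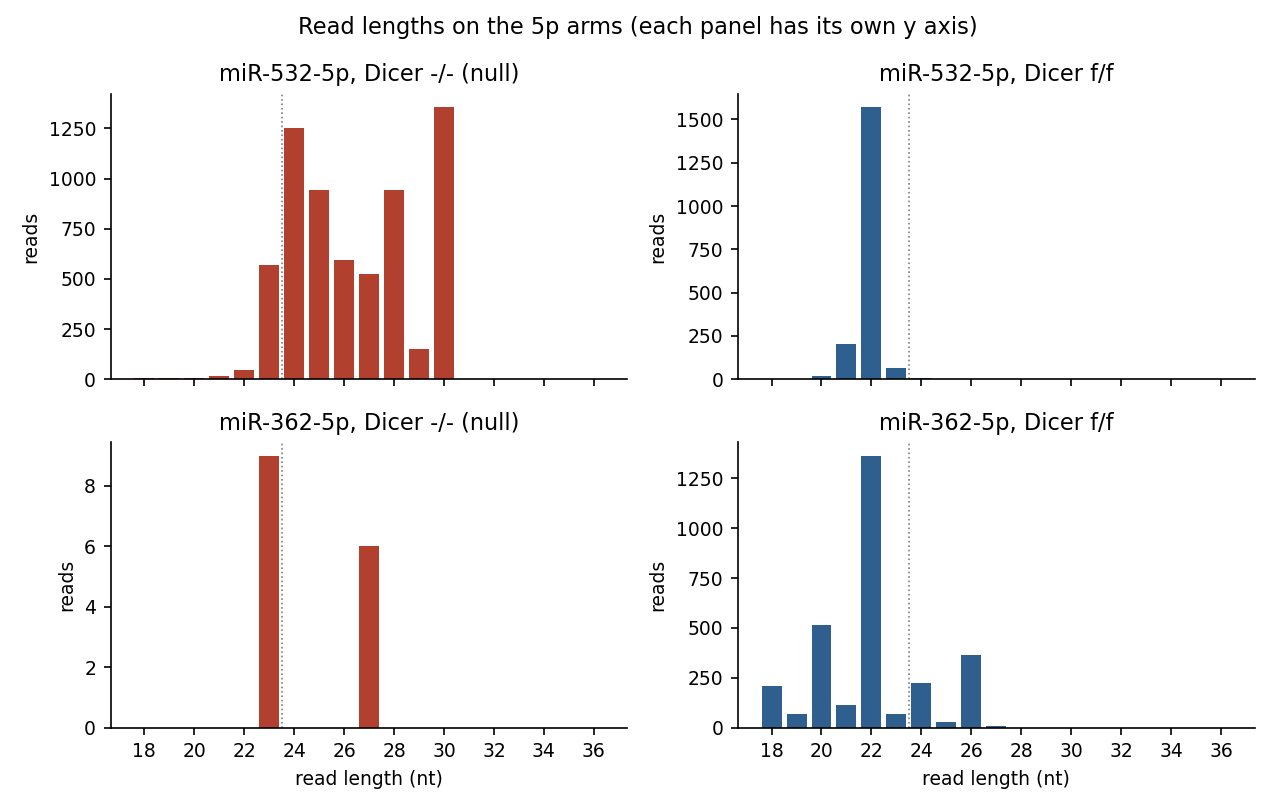
Reads by length (nt) on the 5p arms of Mir532 (upper row) and Mir362 (lower row), null on the left and f/f on the right, each panel with its own linear axis; the dotted line divides 23 from 24 nt. miR-532-5p runs from 23 to 30 nt in null and peaks at 22 nt in f/f, and miR-362-5p has 15 reads of 23 and 27 nt in null.

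The hairpin of Mir532 (chrX:7248402-7248497, minus strand, GENCODE, written as DNA) shows where these reads lie. The 22-nt 5p and 3p forms are in capitals, at positions 21 to 42 and 58 to 79 of the hairpin.
Mir532: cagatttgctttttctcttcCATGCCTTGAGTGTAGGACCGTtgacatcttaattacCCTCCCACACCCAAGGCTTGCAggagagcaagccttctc
The reads that differ most between the libraries share their start and differ in their end. Capitals mark the bases past the 22-nt form.
22 nt: catgccttgagtgtaggaccgt
23 nt: catgccttgagtgtaggaccgtT
24 nt: catgccttgagtgtaggaccgtTG
25 nt: catgccttgagtgtaggaccgtTGA
26 nt: catgccttgagtgtaggaccgtTGAC
28 nt: catgccttgagtgtaggaccgtTGACAT
30 nt: catgccttgagtgtaggaccgtTGACATCT
The 22-nt form had 44 null reads and 1569 f/f reads, and the 23-nt form 558 null reads and 61 f/f reads. The 24-nt form had 1236 null reads and 3 f/f reads, and the 25-nt form 916 null reads and 1 f/f read. The 26-nt form had 591 null reads and 2 f/f reads. From this start, reads of 24 nt or longer numbered 5650 in null and 7 in f/f. The 28-nt form had 939 null reads and 1 f/f read, and the 30-nt form, the commonest of the cluster in null, had 1335 null reads and 0 f/f reads. Forms of 27 and 29 nt had 502 and 131 null reads and 0 f/f reads each. Together the forms of 23 to 30 nt from this start had 6208 null reads and 68 f/f reads.

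The start of miR-532-5p was the same in both libraries. Position 21 began 97.7% of its null reads (97.3 to 98.0) and 96.96% of its f/f reads (96.1 to 97.7). Position 42, its commonest f/f end, closed 0.686% of null reads (0.499 to 0.920) and 86.5% of f/f reads (84.9 to 88.1). In null the ends were spread over positions 43 to 50, with 21.2% at position 50, 19.5% at 44 and 15.0% at 48. RNAfold placed the terminal loop of the hairpin at positions 43 to 55. By this prediction 99.03% of null reads and 3.79% of f/f reads of the arm ended in the loop. On average the end lay 4.53 bases further 3′ in null, rank 5 of the 68 5p arms with at least 100 reads in both libraries, whose median was 2.77. Of these 68 arms, 62 had a mean end further 3′ in null, so the direction is not particular to miR-532-5p. The longest read from position 21 had 30 nt in null and 28 nt in f/f. From positions 20, 22 and 26 the longest null reads also had 30 nt, ending at positions 49, 51 and 55. The libraries held 273635 null and 55119 f/f reads of 31 nt, of which 3 null reads lay in Mir500. Whether read length or hairpin position sets the last ends of miR-532-5p was not tested. Of the cluster's reads, none in either library had 36 nt, the longest length in the files.

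Of the scarcer members, miR-188-5p and miR-362-5p also ended further 3′ in null, on few reads. By their mean end, so did 62 of the 68 5p arms with at least 100 reads in both libraries. All 46 reads of miR-188-5p without mismatch in null ended at positions 29 to 34 of its hairpin, and all 104 in f/f at positions 23 to 27. A further 3 null reads and 100 f/f reads with untemplated ends are left out here. How often the ends of other arms lack overlap was not counted, so nothing is read from this. The reads that lead in each library show the ends, with the 27-nt and 23-nt forms from null and the 20-nt form from f/f.
miR-188-5p, positions 6 to 32: catcccttgcatggtggagggtgagct
miR-188-5p, positions 10 to 32: ccttgcatggtggagggtgagct
miR-188-5p, positions 6 to 25: catcccttgcatggtggagg
The 27-nt form had 5 null reads and 0 f/f reads, the 23-nt form 21 null reads and 0 f/f reads, and the 20-nt form 0 null reads and 30 f/f reads. Position 32, where both null forms end, is the outermost loop base on the 5′ side in the RNAfold structure. miR-362-5p had 15 null reads, all ending at position 31, and 1.08% of its 2975 f/f reads ended there. The predicted loop of Mir362 begins at that position. Its commonest f/f end, position 30, held 54.9% of f/f reads. For miR-501-5p the ends overlapped. Without the upstream flank, position 49 held 12 of 62 null reads and 292 of 689 f/f reads. Of the same reads, 11 in null and 12 in f/f ended in the predicted loop. Only 5 null reads of miR-500-5p began at its RefSeq start, and 3 of them ended at position 51, beyond every f/f read of the arm.

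**Figure D3:**
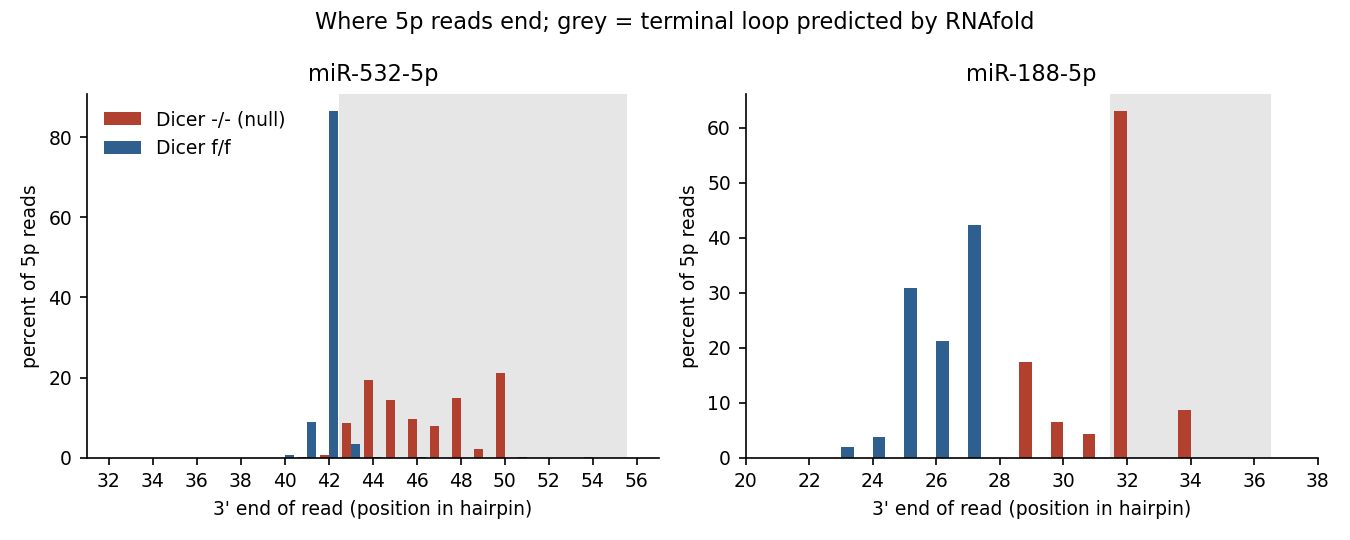
Share of 5p reads (percent) by the hairpin position of their 3′ end for Mir532 (left) and Mir188 (right), null bars left of f/f bars, with the terminal loop predicted by RNAfold in grey. For miR-532-5p, 86.5% of f/f reads end at position 42 and null reads spread over positions 43 to 50. For miR-188-5p, null reads end at 29 to 34 and f/f reads at 23 to 27. How often the ends of other arms lack overlap was not counted.

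At the 5′ end, 3 members had a further common start 4 bases inside the RefSeq miRNA. The leading read of each start is shown with the 4 bases that the shifted form lacks in capitals.
miR-362-5p, position 5: AATCcttggaacctaggtgtgaatgc
miR-362-5p, position 9: cttggaacctaggtgtgaatgc
miR-501-5p, position 24: AATCctttgtccctgggtgaaaatgc
miR-501-5p, position 28: ctttgtccctgggtgaaaatgc
miR-188-5p, position 6: CATCccttgcatggtggagg
miR-188-5p, position 10: ccttgcatggtggagggt
Shifted reads are 4 nt shorter at the same 3′ end, so some fall under the 18-nt minimum. Shares were therefore taken over reads whose 3′ end leaves at least 18 nt from both starts. The shifted form of miR-362-5p made up 60% of 15 null reads (32.3 to 83.7) and 73.7% of 2960 f/f reads (72.1 to 75.3). For miR-501-5p it was 68.9% of 61 null reads (55.7 to 80.1) and 72.5% of 641 f/f reads (68.9 to 76.0). For miR-188-5p it was 73.9% of 46 null reads (58.9 to 85.7) and 65.9% of 44 f/f reads (50.1 to 79.5). In these 3 members the shifted start was the commoner one in both libraries, and the intervals of the libraries overlapped. Without the limit on ends, the miR-188-5p share in f/f was 27.9% of 104 reads, against an unchanged 73.9% in null. The other members lacked the shift. miR-532-5p had 2 such reads of 6383 in null and 3 of 1687 in f/f, and miR-500-5p, which begins with the same 4 bases as miR-362-5p, 0 of 5 in null and 0 of 64 in f/f.

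Over all hairpins, 118 RefSeq 5p miRNAs had at least 100 such f/f reads, and 2 of them, miR-362-5p and miR-501-5p, had more than 25% at the shifted position (1.69%). miR-188-5p has too few reads to enter that count. In null 0 of 66 did, a set that holds no member of the cluster. The count was chosen after the shift had been seen. In f/f, reads of miR-362-5p from both starts ended most often at position 30, and those of miR-501-5p at position 49, so the shifted forms were 4 nt shorter at the same end. Of the 631 long f/f reads of miR-362-5p, 627 began at position 5 and 0 at position 9. Long reads thus had different makeups, with ends past position 42 in miR-532-5p of null and the RefSeq start in miR-362-5p of f/f. In shifted reads, bases 2 to 8 are UUGGAAC for miR-362-5p, UUUGUCC for miR-501-5p and CUUGCAU for miR-188-5p. Among mature mouse miRNAs of the table, miR-7241-5p has CUUGCAU as its seed and none has the other 2.

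**Figure D4:**
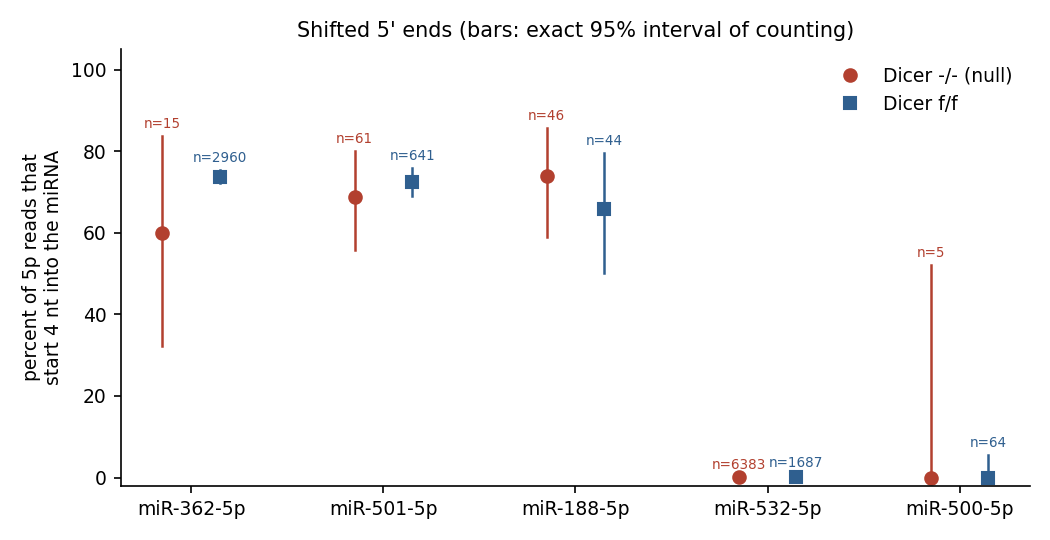
Percent of 5p reads that start 4 bases inside the miRNA, over reads whose 3′ end leaves at least 18 nt from both starts, for each member in null (circles) and f/f (squares), with exact 95% intervals and the number of reads (n). miR-362-5p, miR-501-5p and miR-188-5p lie at 60%, 68.9% and 73.9% in null and at 73.7%, 72.5% and 65.9% in f/f, and miR-532-5p and miR-500-5p at or near 0.

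A few reads came from outside the miRNAs but inside the hairpins. In Mir501, 17 null reads and 5 f/f reads ended at position 23, the base before miR-501-5p, and were counted in its 5p arm above. A further 11 null reads and 7 f/f reads lay past the 3p miRNA. The leading 2 sequences were these.
Mir501, positions 5 to 23: tgctctgctcatcctctct
Mir501, positions 84 to 103: ggaaggtgagcctgatctgc
The upstream sequence had 13 null reads and 0 f/f reads, and the downstream one 8 null reads and 4 f/f reads. Upstream flanks also gave 3 null reads and 0 f/f reads in Mir532, ending at position 20 next to the miRNA, and 2 null reads and 0 f/f reads in Mir500. Both flanks of Mir188 and Mir362 had 0 reads in either library, and their annotated hairpins leave little room for any.

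Reads with 1 to 3 untemplated bases at the 3′ end were counted apart. They made up 4.67% of miR-532-5p in null (4.17 to 5.20) and 12.2% in f/f (10.8 to 13.6). In null 154 of the 314 such reads had U alone and 55 had A alone, whereas in f/f 2 of 259 had U alone and 185 had A alone. An added base that equals the next hairpin base cannot be seen this way. The hairpin has U after the 22-nt form, so a U added to it reads as the 23-nt form (558 null reads and 61 f/f reads), and the makeup of tails cannot be compared between the libraries. In null, most U tails sat on forms of 24 nt (60 reads), 26 nt (41) and 28 nt (31). The 30-nt form, as long as the longest reads of Mir532, had 0 tailed reads beside 1335 untailed ones. A part of read length in this was not tested. In f/f, where 3p arms had enough reads, tails were 29.4% of miR-501-3p (26.1 to 32.9), of which 75.8% were U alone, 22.5% of miR-362-3p (19.8 to 25.3) and 13.0% of miR-500-3p (11.8 to 14.3).

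The choice of scale bears on the size of these ratios. Per snoRNA and snRNA read all log2 ratios move by -2.12, and miR-532-5p then stood at 1.25-fold its f/f level (1.18 to 1.31) rather than 5.42-fold. Per hairpin read they move by 4.78, so that any member or group lower in null by less than this on the log2 scale becomes higher. The lengths, ends, starts and arm shares are taken within a library and do not move.

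The hairpin groups set beside the cluster shared the directions of its sum, lower at 18 to 23 nt and higher at 24 to 36 nt. The ratios differed in size. The miR-183, miR-96 and miR-182 cluster on chromosome 6 was 4.81-fold higher in null as a sum (4.60 to 5.04), with a log2 ratio of -0.77 at 18 to 23 nt and 4 at 24 to 36 nt. The intronic cluster of miR-106b, miR-93 and miR-25 in Mcm7 was 9.11-fold lower (8.88 to 9.35), with -5.34 and 2.12. The miR-532 cluster as a sum had -2.93 and 3.41, and among 108 arms outside it miR-335-5p (-2.75 and 3.81), miR-31-3p (-3.84 and 3.02), miR-16-2-5p (-1.78 and 3.09), miR-106b-5p (-4.63 and 3.67) and miR-503-5p (-3.91 and 4.82) came nearest in these 2 values. The likeness rests on 2 libraries and on a sum that mixes unlike members. At 24 to 36 nt Mir532 gave 5765 of the 5801 null reads and 9 of the 864 f/f reads, and alone it had -1.30 and 9.98.

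**Figure D5:**
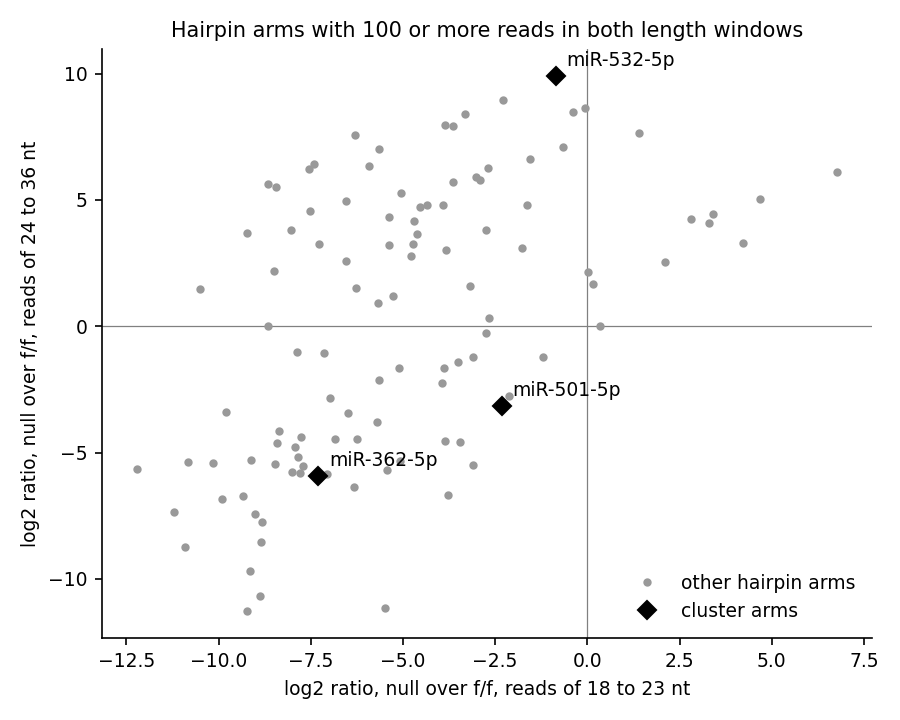
Log2 ratios of null over f/f (0.5 reads added) at 18 to 23 nt (horizontal) and 24 to 36 nt (vertical) for 111 hairpin arms with at least 100 reads in both windows; diamonds mark the 3 arms of the cluster among them. On reads without mismatch, miR-532-5p lies at -0.86 and 9.91, and miR-362-5p at -7.29 and -5.94.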

How the data were processed

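Total RNA was extracted with Qiazol, RNA of 15 to 50 nt was gel-selected and sequenced by Illumina's small RNA method, per the labels' protocols. What the authors deposited per library is a list of sequences of 5 to 36 nt, each with its raw read count and no gene or coordinate. The build was mm9 per the submitters' processing notes; the trimming tool is not given in the sources used here. Reads of at least 18 nt were matched exactly, in sense, to GENCODE M21 miRNA hairpins (GRCm38), and the arm was the side of the hairpin midpoint on which a read centred. Mature sequences came from RefSeq (GRCm38.p6). A 3-count floor gave the bounds on ratios against 0 reads. Ratios carry exact conditional intervals and shares Clopper-Pearson intervals, at 95%; PCR copies are not independent, so they cover counting error only. Python 3.11.15, numpy 2.4.6, scipy 1.17.1, matplotlib 3.10.9 and RNAfold (ViennaRNA 2.7.2) were used. Depth was 6291599 reads (null) and 9943989 reads (f/f).

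Groups came from the genotype label. Every member was described by arm and length, with the commonest read of each arm, length class and library, and the 5 nearest arms outside the cluster. Members and lists were chosen with earlier results of these data known. Ends, starts, flanks, tails and host fragments were chosen after their values were seen. On simulated data for null over f/f, 400 of 400 hairpin reads and 0 of 400 shuffled reads were matched, and 94% of unchanged arms had their true ratio inside its interval. Alternatives changed the scale, length limits, copy number, matching and members. No genome sequence was used.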

Additional observations from a re-analysis of the deposited data

How the results depend on the processing

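Values are log2 ratios of null over f/f. The cluster sum at 18 nt and longer, 0.03, became 0.16 per read of 18 nt or longer, -2.09 per snoRNA or snRNA read and 4.81 per hairpin read. It was 0.12 with sequences seen at least 2 times, -0.09 with untemplated bases allowed, -0.02 without the commonest sequence of each library and -4.93 without Mir532. At 18 to 23 nt the sum, -2.93, became -2.79, -5.05 and, reversed, 1.85 on the same 3 scales, -3.06 with untemplated bases, -4.46 without the commonest sequences, -1.04 at 18 to 25 nt, -5.14 at 18 to 22 nt and -5.12 without Mir532. At 24 to 36 nt the sum, 3.41, became 3.54, 1.29 and 8.19 on those scales, 3.52 with sequences seen at least 2 times, 2.99 with untemplated bases, 3.82 without the commonest sequences and, reversed, -3.91 without Mir532. Per snoRNA or snRNA read 0 arms were more than 2-fold higher in null, and per hairpin read 3 were, in place of 1. The scales shift all ratios by construction; the other causes were not tested. The remaining 15 of 39 values stayed within the counting interval or kept the same count. The limits of 18 to 22 nt and the sums without Mir532 were chosen after seeing the data. No paired analysis was possible because each genotype has 1 library. Depth limits the 4 scarcer members, with 7 to 91 null reads each.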

Other observations

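Neighbours of miR-532-5p itself, a comparison chosen after its values were seen, were miR-350-5p (log2 ratios of null over f/f of -0.07 at 18 to 23 nt and 8.66 at 24 to 36 nt), miR-183-5p (-0.38 and 8.5) and miR-27a-5p (-2.28 and 8.97), beside -0.86 and 9.91 for miR-532-5p. Reads of 34 nt numbered 2508 in null and 366 in f/f, and reads of 35 nt 0 in each, while 36 nt had 903323 in null and 166598 in f/f; forms of the cluster at 34 or 35 nt would therefore hardly be seen in these files.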
